A study of Mus musculus with 4 samples.

Results

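Matrix Gla protein (Mgp) was examined together with the bone morphogenetic protein (BMP) ligand genes Bmp2, Bmp4 and Bmp6, the secreted modulators Bmper and Fstl1 and the membrane modulators Tmem100 and Bambi. These 8 genes were taken by symbol from a table of 17915 genes. Mgp was chosen by its measured rise in tdTomato+ libraries, so its values are given as a description with no test. The other 7 were taken for their function, with earlier results of these data known. Bulk RNA-seq was done on sorted lung endothelial cells, in 4 libraries: biological replicates 1 and 2 of a tdTomato+ group and of a ZsGreen+ group. All 4 came from mice of the genotype Cdh5-CreER;aSMA-LSL-Dre;NR1, given tamoxifen 5 times and studied 6 weeks after transverse aortic constriction (TAC), a narrowing of the aorta. Cdh5-CreER acts in endothelium, whose cells carry ZsGreen, and a cell that has switched on alpha smooth muscle actin (aSMA), even briefly, carries tdTomato. The mark therefore records past activation. Every library carries the same alleles and the same surgery, and mice without surgery are not analysed here. The labels give neither the age of the mice nor whether a library is 1 mouse or a pool, and a p-value here reflects only how far these 4 libraries vary, which may be technical. The question is what aSMA activation means for gene expression in these cells.

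BMPs are secreted ligands of the TGF-beta family that bind pairs of receptor kinases, which then activate Smad1, Smad5 and Smad9 and, with Smad4, genes such as the Id family. In lung vessels the pathway is known for the receptor gene Bmpr2, whose loss predisposes to pulmonary arterial hypertension. Extracellular proteins such as Mgp and Bmper bind BMPs and limit or present them, and membrane proteins such as Bambi act at the receptors.

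Libraries held 17050673 to 18574737 estimated read counts. The locus that the recorder reads, Acta2, stood at 281 and 450 TPM in tdTomato+ and at 62.1 and 70.6 TPM in ZsGreen+ libraries (TPM is a level scaled to gene length and to the library's total). All 8 endothelial identity markers (Cdh5, Pecam1 and others) were read in every library, with a summed level of 3570 to 4150 TPM. In counts scaled to library size (CPM), 3 lay lower in both tdTomato+ libraries and 1 higher, beside 18.2% and 19.9% of all genes tested. Cldn5 stood at 538.5 and 669 TPM in tdTomato+ against 817 and 1154 TPM in ZsGreen+ libraries, and Emcn at 796 and 827 against 535 and 653 TPM. Fold changes are tdTomato+ over ZsGreen+ on the log2 scale, from edgeR's quasi-likelihood fit, with a standard error (SE) derived from its F statistic. A gene was called at a Benjamini-Hochberg adjusted p under 0.05 over 13177 genes. Of these genes 40 (0.304%) were called. Leaving out tdTomato+ replicate 1 gave 17 and replicate 2 gave 4, and leaving out ZsGreen+ replicate 1 gave 304 and replicate 2 gave 26. The median log2 fold change was -0.01 over these genes and 0.12 over the 11978 genes tested on log2(TPM + 1), so folds read from TPM lie somewhat above those of the fit.

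Mgp, Bmp4 and Fstl1 stood higher in both tdTomato+ libraries than in both ZsGreen+ libraries, and Bmp6 stood lower. Bmp2, Bmper, Tmem100 and Bambi overlapped between the groups. Leaving aside Mgp, whose separation was what it was chosen for, 3 of 7 did not overlap, beside 38.1% of all genes tested, with 2 higher (19.9% of all genes) and 1 lower (18.2%). All 8 genes passed the filter on low counts. Apart from Mgp, edgeR called 0 of 7, beside the 0.304% over all genes. Without adjustment 3 of 7 (Bmp4, Fstl1 and Bmp6) had a p under 0.05, beside 8.77% of all genes. DESeq2 called 2 of 7 (Bmp4 and Fstl1), beside 2.37% of the genes it adjusted, and limma on log2 TPM called 0. The median log2 fold change of the 7 was -0.15, against -0.01 for all genes tested.

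**Figure D1:**
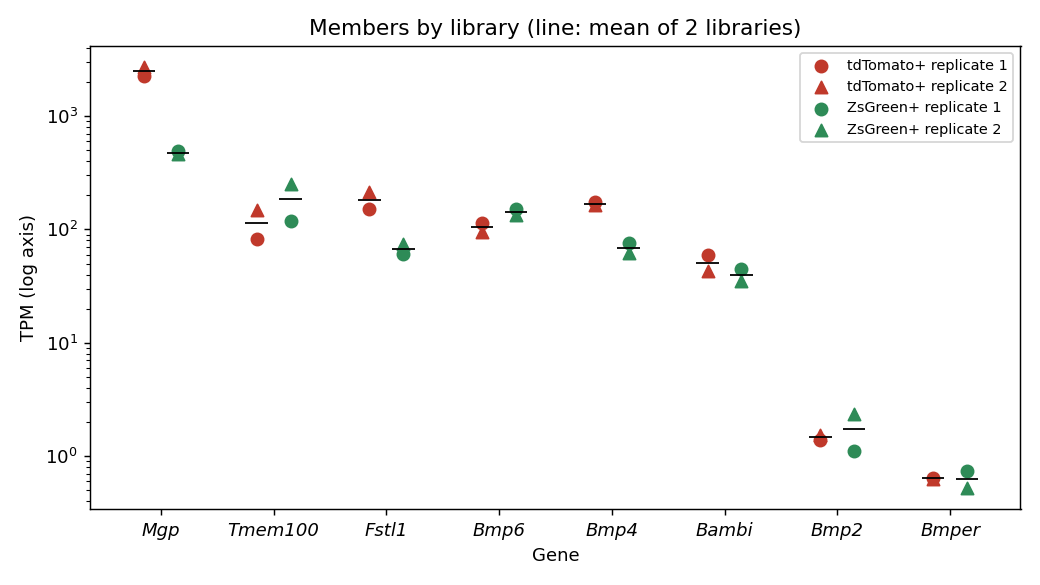
Level of each of the 8 genes in each library, in TPM on a log axis; points are libraries (circle replicate 1, triangle replicate 2), and lines are means of 2. Mgp lies highest in both groups, Bmp2 and Bmper lie near 1 TPM, and for Mgp, Bmp4, Fstl1 and Bmp6 the groups do not overlap.

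Mgp encodes a small secreted protein with vitamin K-dependent Gla residues that inhibits calcification of vessels and cartilage and binds BMP ligands. It stood at 2254 and 2715 TPM in tdTomato+ libraries and at 488 and 460 TPM in ZsGreen+ libraries. Both tdTomato+ values thus lay far above both ZsGreen+ values, and libraries of the same group differed by at most 1.2-fold. Among the 17915 genes of the table, ordered by TPM, Mgp ranked 55 and 42 in tdTomato+ and 355 and 387 in ZsGreen+ libraries. The ZsGreen+ libraries, of the group without the recorded mark, therefore also held much Mgp RNA. The fitted log2 fold change was 2.22, a 4.65-fold difference, given as a description of the values that chose the gene. Mgp (NCBI Gene 17313) lies on the minus strand of chromosome 6, from 136872435 to 136875823 in GRCm38, and the table lists 1 transcript for it.

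Mgp was the most abundant of the 8 genes in both groups. In tdTomato+ libraries it was followed by Fstl1 (182 ± 44.8 TPM, SD, n = 2), Bmp4 (168 ± 7.5), Tmem100 (114 ± 46.2), Bmp6 (104 ± 14.1), Bambi (51.0 ± 11.1), Bmp2 (1.46 ± 0.113) and Bmper (0.635 ± 0.00707). In ZsGreen+ libraries the order after Mgp (474 ± 19.5) was Tmem100 (185 ± 93.9), Bmp6 (143 ± 12.5), Bmp4 (68.5 ± 9.96), Fstl1 (67.4 ± 9.45), Bambi (39.9 ± 6.58), Bmp2 (1.73 ± 0.87) and Bmper (0.63 ± 0.156). The values of Fstl1 and Bmp4 overlapped in both groups, as did those of Tmem100 and Bmp6, so the order within these pairs is not fixed by the data. Bmp4 and Fstl1 thus stood below Bmp6 in each ZsGreen+ library and above it in each tdTomato+ library.

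**Figure D2:**
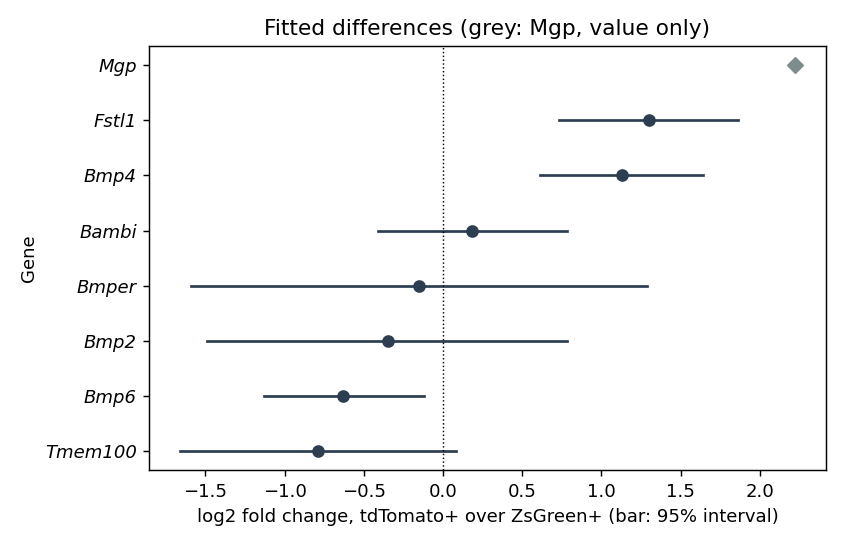
Fitted log2 fold change of tdTomato+ over ZsGreen+ for the 8 genes on the horizontal axis, with bars for the 95% interval except for Mgp, in grey, which is shown by its value alone. Fstl1 and Bmp4 lie above 0 and Bmp6 below 0, while the intervals of Bambi, Bmper, Bmp2 and Tmem100 span 0.

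Bmp4 and Bmp6 were the BMP ligands with substantial RNA, and they differed in opposite directions. Bmp4, a ligand of the same subgroup as Bmp2 and important in lung development, stood at 174 and 163 TPM in tdTomato+ libraries and at 75.6 and 61.5 TPM in ZsGreen+ libraries. The lower tdTomato+ value was well above the higher ZsGreen+ value. The log2 fold change was 1.13 (SE 0.22, 95% interval 0.61 to 1.64), and edgeR's adjusted p was 0.144, so the gene was not called; over the alternatives without a replicate block the adjusted p ran from 0.00101 to 0.655. Without ZsGreen+ replicate 1 Bmp4 was called (1.42, edgeR adjusted p = 0.0183), and DESeq2 called it (1.11, adjusted p = 0.00101).

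Bmp6, a ligand that endothelial cells also use to control hepcidin in the liver, stood at 114 and 94.0 TPM in tdTomato+ libraries and at 152 and 134 TPM in ZsGreen+ libraries. The groups did not overlap, but the gap between them was small. The log2 fold change was -0.63 (SE 0.21, 95% interval -1.13 to -0.12; edgeR adjusted p = 0.434), and no alternative called it. Exons of Txndc5 overlap those of Bmp6 on the opposite strand in GENCODE, and no source used here gives the strandedness. Txndc5 stood at 152 and 133 against 125 and 102 TPM (log2 fold change 0.15, SE 0.22; edgeR adjusted p = 0.923). Its part in the Bmp6 values was not tested. Bmp4 exons overlap those of Gm15217 on the opposite strand, a gene not analysed here.

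Bmp2, the third ligand, was scarce. Its level was 1.38 and 1.54 TPM in tdTomato+ and 1.11 and 2.34 TPM in ZsGreen+ libraries, from 45 to 93 counts a library. The groups overlapped, with the 2 ZsGreen+ libraries at the lowest and the highest value. The log2 fold change was -0.35 (SE 0.48), and its 95% interval, -1.49 to 0.78, leaves room for more than a 2-fold difference in the lower direction.

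The mix of ligand RNA therefore differed between the groups. Over the 19 BMP and GDF ligand genes in the table, Bmp4 took 50.4% and 53.0% of the summed TPM in tdTomato+ libraries and 27.7% and 24.9% in ZsGreen+ libraries. Bmp6 took 33.1% and 30.6% against 55.7% and 54.4%. The ratio of Bmp4 to Bmp6 TPM was 1.52 and 1.73 in tdTomato+ and 0.498 and 0.458 in ZsGreen+ libraries, so the more abundant of these ligands changed from Bmp6 to Bmp4. Both genes together held 79.4% to 83.6% in every library, and the summed level of all 19 was 344 and 307 against 273 and 247 TPM. The ratio of Mgp to the sum of Bmp2, Bmp4 and Bmp6 was 7.8 and 10.5 in tdTomato+ against 2.14 and 2.32 in ZsGreen+ libraries. With 2 against 2 libraries an exact two-sided permutation test cannot go below p = 0.333, so these ratios are given without a test.

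**Figure D3:**
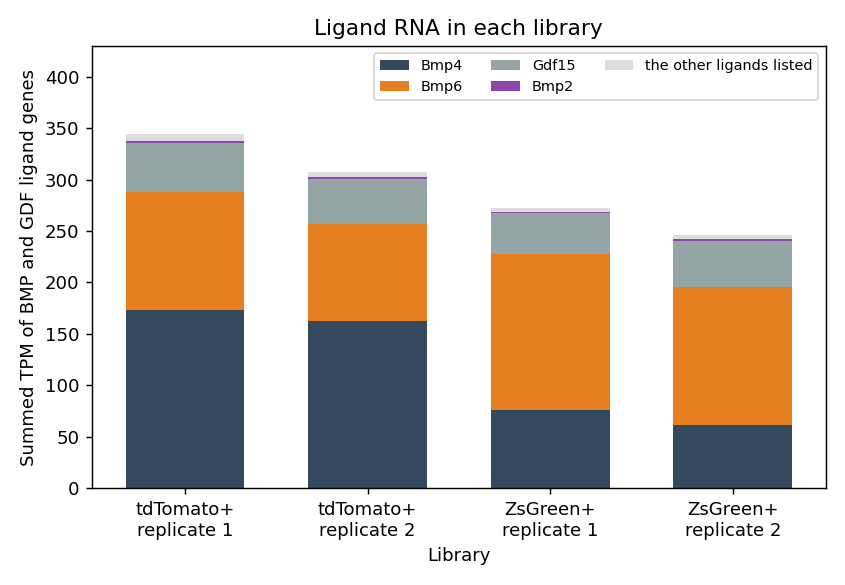
Summed TPM of 19 BMP and GDF ligand genes in each library (bars start at 0), divided by gene. Bmp4 is the largest part of both tdTomato+ bars and Bmp6 of both ZsGreen+ bars, while Gdf15 stays between 40.1 and 48.2 TPM.

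The sequences around the annotated starts of Bmp4 and Bmp6 are shown because these ligands differed in opposite directions. Each runs 5′ to 3′ on the gene's strand from 250 bases before to 50 bases after the start (RefSeq, GRCm38.p6): chr14:46390620-46390919, minus strand, for Bmp4 and chr13:38345466-38345765, plus strand, for Bmp6. Capitals mark CACGTG, an E-box that reads the same on both strands.
Bmp4: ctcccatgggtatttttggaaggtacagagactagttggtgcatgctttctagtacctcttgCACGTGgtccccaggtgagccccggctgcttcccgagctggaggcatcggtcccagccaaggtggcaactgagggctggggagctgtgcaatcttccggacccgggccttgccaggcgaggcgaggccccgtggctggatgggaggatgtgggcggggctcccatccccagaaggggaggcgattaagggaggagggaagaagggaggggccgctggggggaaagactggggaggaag
Bmp6: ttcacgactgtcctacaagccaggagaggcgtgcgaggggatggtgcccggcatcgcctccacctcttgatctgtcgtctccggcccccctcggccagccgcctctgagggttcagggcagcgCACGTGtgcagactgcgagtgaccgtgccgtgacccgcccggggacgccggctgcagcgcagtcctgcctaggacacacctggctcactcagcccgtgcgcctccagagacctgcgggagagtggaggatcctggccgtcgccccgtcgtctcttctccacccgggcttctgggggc
Both windows hold 1 CACGTG, which 7.15% of the 32851 windows of this length in the RefSeq table hold. Neither holds GGCGCC, a GC-rich sequence that BMP-activated Smads can bind (in 11.9% of windows), nor TATAAA (13.6%), on either strand. Both are GC-rich, at 64.0% for Bmp4 and 69.3% for Bmp6 against a median of 52.7%, while the observed over expected ratio of CpG is 0.419 for Bmp4 and 0.751 for Bmp6. RNA levels do not show which factors act there. Of the 8 genes, 4 had a window that was read here (Bmp4, Bmp6, Bmper and Fstl1). Bambi was not examined for one.

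Fstl1, a secreted glycoprotein of the follistatin and SPARC family that can dampen BMP4 signalling in the developing lung, stood at 151 and 214 TPM in tdTomato+ libraries. In ZsGreen+ libraries it stood at 60.7 and 74.0 TPM, below both tdTomato+ values. The log2 fold change was 1.3 (SE 0.24, 95% interval 0.73 to 1.86; edgeR adjusted p = 0.126), and 604 of the 13177 genes had a larger one. The gene was not called; over the alternatives without a replicate block the adjusted p ran from 5.42e-05 (DESeq2) to 0.735 (edgeR). DESeq2 called it (1.28, adjusted p = 5.42e-05), as did edgeR without a filter on low counts (adjusted p = 0.034). Fstl1 (NCBI Gene 14314) lies on chromosome 16 from 37777055 to 37836516 in GRCm38.

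Bmper, a secreted BMP-binding protein first known from endothelial precursors, was at the limit of what these libraries measure. Its level was 0.64 and 0.63 TPM in tdTomato+ and 0.74 and 0.52 TPM in ZsGreen+ libraries, from 22 to 32 counts. Both tdTomato+ values lay between the ZsGreen+ values. The log2 fold change was -0.15, and its 95% interval, -1.59 to 1.29, leaves room for more than a 2-fold difference in either direction.

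Tmem100, a membrane protein of endothelial cells whose expression depends on the BMP receptor ALK1, stood at 81.7 and 147 TPM in tdTomato+ and at 119 and 251 TPM in ZsGreen+ libraries. It varied between libraries of the same group by 1.8-fold and 2.12-fold, and the groups overlapped. The log2 fold change was -0.79 (SE 0.37, 95% interval -1.66 to 0.08; edgeR adjusted p = 0.628). Bambi, a membrane protein that resembles a type I receptor without a kinase domain and so blocks signalling, stood at 58.9 and 43.2 TPM against 44.6 and 35.3 TPM. These values overlapped, and the log2 fold change of 0.18 (SE 0.25, 95% interval -0.41 to 0.78) did not keep its sign without tdTomato+ replicate 1 (-0.02) or without ZsGreen+ replicate 2 (-0.08).

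The rest of the pathway was read from 7 gene lists of 90 genes, of which 86 are in the table and 62 were tested. edgeR called 0 of the 62, beside 0.304% of all genes, and 12 had an unadjusted p under 0.05, beside 8.77%. DESeq2 called 3, beside 2.37% of the genes it adjusted. In 13 genes the tdTomato+ libraries lay above both ZsGreen+ libraries, and in 7 below both, beside 19.9% and 18.2% of all genes. The median log2 fold change of the 62 was 0.10, against -0.01 for all genes tested.

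Among further secreted modulators the median log2 fold change was 0.52 over 12 tested genes of 22 listed. In 6 the tdTomato+ libraries lay above both ZsGreen+ libraries and in 1 below, beside 19.9% and 18.2% of all genes. Smoc1, a matricellular protein that antagonizes BMPs, stood at 6.01 and 12.3 TPM against 0.79 and 1.22 TPM (log2 fold change 3.07, SE 0.46; edgeR adjusted p = 0.0768). Htra1, a secreted serine protease reported to act on TGF-beta family signals, stood at 94.6 and 118 TPM against 30.3 and 21.5 TPM (1.87, SE 0.29; edgeR adjusted p = 0.0809). Tll1, a tolloid-like protease of the kind that cleaves the BMP antagonist chordin, stood at 6.39 and 7.22 TPM against 1.41 and 3.30 TPM (1.42, SE 0.37; edgeR adjusted p = 0.259). None was called by edgeR, and these were the 3 genes DESeq2 called (adjusted p = 9.9e-08, 3.26e-07 and 0.0286). The summed level of the modulators was 280 and 317 TPM in tdTomato+ and 152 and 159 TPM in ZsGreen+ libraries.

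Of the ligands beyond Bmp2, Bmp4 and Bmp6, 7 of 17 listed were tested, with a median log2 fold change of -0.01. Gdf15, a stress-induced ligand that signals outside the BMP receptors, led them at 48.2 and 43.6 TPM against 40.1 and 44.5 TPM (-0.02, SE 0.19). Gdf9, known from the oocyte, stood at 2.64 and 1.18 TPM against 0.36 and 1.48 TPM. Bmp10 was read in 1 library only, at 0.08 TPM, and Gdf2, which encodes BMP9, is not analysed here.

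Receptors, Smads and target genes held differences in both directions and edgeR called 0 of them. The median log2 fold change was -0.08 for receptors and co-receptors (11 tested of 13), -0.12 for Smads (4 of 4) and -0.13 for target genes (10 of 11). Acvrl1, which encodes the endothelial type I receptor ALK1, stood at 540 and 522 TPM in tdTomato+ and at 700 and 647 TPM in ZsGreen+ libraries (-0.50, SE 0.21; edgeR adjusted p = 0.558). Bmpr2, the type II receptor, overlapped at 25.4 and 21.3 against 18.0 and 30.8 TPM. The co-receptor Rgmb stood at 22.0 and 22.8 against 14.6 and 20.99 TPM, without overlap in TPM but with overlap in CPM (log2 fold change 0.19, SE 0.20). The signal transducer Smad1 stood at 93.5 and 91.8 against 87.2 and 103 TPM, Smad5 at 19.03 and 13.0 against 13.9 and 15.8 TPM, and the shared partner Smad4 at 9.40 and 9.76 against 9.71 and 19.3 TPM. Smad4 had a fitted log2 difference of -0.72 (SE 0.27), with an edgeR adjusted p of 0.487. In TPM the groups of all 3 Smads overlapped, while in CPM both tdTomato+ libraries lay lower for Smad1 and Smad4.

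Of the target genes, Id2, an inhibitor of basic helix-loop-helix factors, stood at 101 and 86.2 TPM against 63.5 and 56.6 TPM (log2 fold change 0.47, SE 0.21). Hey1, a transcriptional repressor that Notch also controls, stood at 79.4 and 66 against 109 and 85.5 TPM (-0.60, SE 0.23). Msx1, a homeobox repressor, stood at 18.2 and 17.5 against 19.7 and 24.4 TPM (-0.45, SE 0.20). These genes did not overlap between the groups, and the edgeR adjusted p was 0.593, 0.517 and 0.603. Id1 and Id3, the most used readouts of BMP signalling and named here after their values were seen, overlapped between the groups, at 273 and 417 against 279 and 391 TPM for Id1 and 1158 and 1453 against 1167 and 1174 TPM for Id3. Their log2 fold changes were -0.09 (95% interval -0.69 to 0.51) and 0.00 (-0.53 to 0.53).

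**Figure D4:**
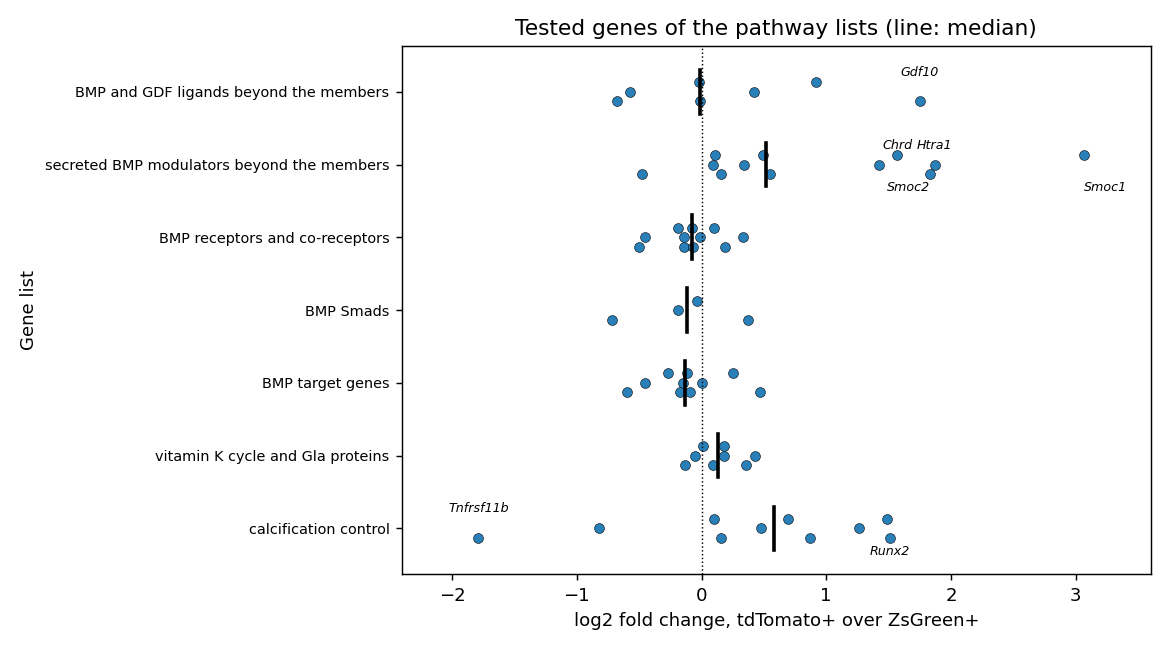
Log2 fold change (horizontal axis) of each tested gene in the 7 pathway lists, with a black line at each list's median; genes at 1.5 or more in size are named. The medians of receptors, Smads and target genes lie between -0.13 and -0.08, and the secreted modulators reach 3.07 for Smoc1.

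The vitamin K cycle equips Mgp with its Gla residues. For its genes and those of other Gla proteins the median was 0.13 (log2 fold change) over 8 tested of 11 listed, against -0.01 for all genes, and edgeR called 0. Ggcx, the carboxylase that makes Gla residues, stood at 20.5 and 22.4 TPM against 14.3 and 17.3 TPM (0.36, SE 0.18; edgeR adjusted p = 0.669). The quinone reductase Nqo1 stood at 11.8 and 16.7 against 7.27 and 12.2 TPM, and the Gla protein Gas6, a ligand of TAM receptors, at 50.9 and 71.7 against 43.1 and 55.0 TPM; both overlapped. Genes that control calcification had a median of 0.58 over 10 tested genes of 12. Tnfrsf11b, which encodes the decoy receptor osteoprotegerin, stood at 1.16 and 1.24 TPM against 1.71 and 6.11 TPM (-1.79, SE 0.59). Alpl, an alkaline phosphatase, stood at 1.70 and 3.16 against 0.53 and 1.04 TPM (1.49, SE 0.59), and the phosphate carrier Slc20a2 at 8.15 and 10.1 against 4.78 and 7.22 TPM. Their edgeR adjusted p was 0.412, 0.527 and 0.732, so none was called.

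The 5 genes whose pattern over the 4 libraries lay nearest to that of Mgp were Fads2, Ccdc80, Tmem255b, Spint2 and Arhgap44. Likeness was the Euclidean distance of log2 CPM (counts scaled to library size) centred on each gene's mean, among 10359 tested genes at 5 CPM or more, and the distances were 0.085, 0.115, 0.201, 0.212 and 0.232. Fads2, a fatty acid desaturase, stood at 49.1 and 62.3 against 10.4 and 10.1 TPM, and Ccdc80, a matrix-associated protein, at 43.3 and 48.3 against 8.85 and 8.59 TPM. Tmem255b, a membrane protein, stood at 37.0 and 50.8 against 8.75 and 9.04 TPM. Spint2, a protease inhibitor, stood at 80.0 and 80.6 against 17.5 and 15.2 TPM, and Arhgap44 at 4.01 and 4.48 against 0.73 and 0.79 TPM. These genes were chosen for their likeness to Mgp, so their separation between the groups follows from that choice. By the same distance Fstl1 ranked 107 and Bmp4 140, while Bambi ranked 2164, Bmp6 9979 and Tmem100 10181.

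Of the 16 genes that flank the 8 genes in the table, 13 were tested and edgeR called 0, beside 0.304% of all genes. Their log2 fold changes ran from -0.30 to 2.20, with a median of -0.18. The highest was that of Art4, an ADP-ribosyltransferase gene 14.8 kb from Mgp, at 5.99 and 13.0 TPM in tdTomato+ and 1.81 and 1.93 TPM in ZsGreen+ libraries (2.20, SE 0.47; edgeR adjusted p = 0.172). Its groups did not overlap, which held for 6 of the 13 tested flanking genes and for 38.1% of all genes. The fitted difference of Art4 was close to that of Mgp. On the other side of Mgp, Erp27 was at 0.35 and 0.08 TPM in tdTomato+ and listed at 0 in both ZsGreen+ libraries, and was not tested. The next highest flanking gene was Ddhd1 beside Bmp4, at 0.31 (SE 0.27). The flanking genes of Fstl1, Ndufb4 and Gm36028, stood at -0.29 (SE 0.23) and -0.19 (SE 0.70).

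**Figure D5:**
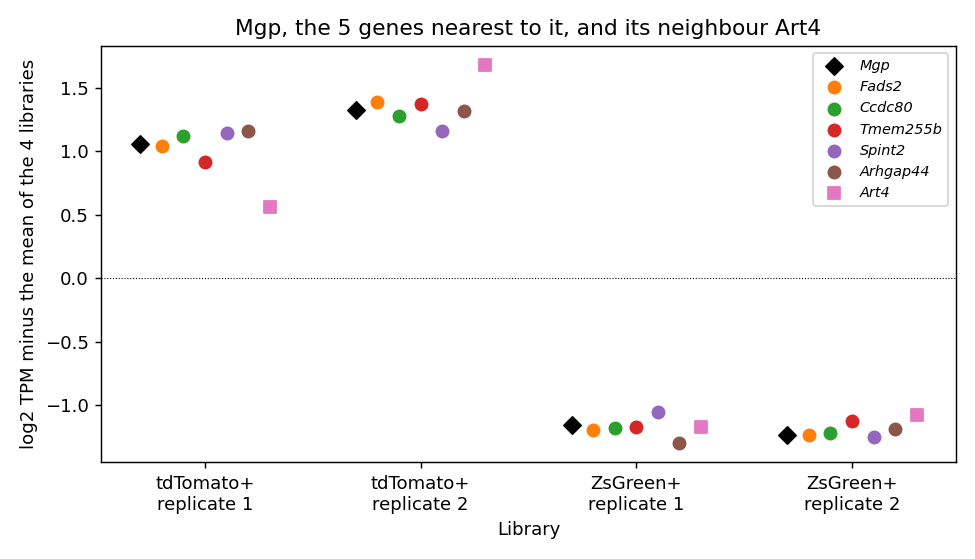
Log2 TPM minus the mean over the 4 libraries (vertical axis) for Mgp (diamond), the 5 genes nearest to it (circles) and its neighbour Art4 (square), by library. The 5 genes follow Mgp by the way they were chosen, and Art4 differs most between the tdTomato+ libraries.

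Mgp and Fstl1 are also abundant in fibroblasts and other mesenchymal cells, and in bulk RNA a different share of cells and a different amount of RNA per cell cannot be told apart. Of 10 fibroblast markers 6 lay higher in both tdTomato+ libraries and 0 lower, beside 19.9% and 18.2% of all genes, edgeR called 0, and their median log2 fold change was 1.32. Their summed level was 119 and 188 TPM in tdTomato+ and 39.9 and 48.5 TPM in ZsGreen+ libraries. The markers with the smallest p were Pi16 (52.4 and 64.4 against 12.2 and 5.59 TPM), Col3a1 (17.8 and 33.9 against 5.99 and 9.21 TPM) and Dcn (10.7 and 11.8 against 4.53 and 3.07 TPM). The mean difference between the groups was 110 TPM for that sum, 2010 TPM for Mgp, 115 TPM for Fstl1 and 99.8 TPM for Bmp4. Their part in the differences of Mgp, Fstl1 and Bmp4 was not tested.

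Markers of other cell types varied in level. The 6 pericyte markers summed to 4.42 to 5.58 TPM, chondrocyte markers in the table to 0.87 to 1.51 TPM with Col2a1 and Col9a1 at 0 in all libraries. Smooth muscle markers summed to 1570 and 2010 against 1230 and 1010 TPM, nearly all of it Tagln. Of 6 tested, 3 lay higher in both tdTomato+ libraries and 0 lower, beside 19.9% and 18.2% of all genes. The smooth muscle myosin Myh11 overlapped at 0.59 to 1.98 TPM. Mesothelial markers summed to 23.4 and 35.4 against 15.9 and 13.0 TPM, most of it Krt19 (21.9 and 29.6 against 14.6 and 11.4 TPM). Msln overlapped, and Upk3b, Wt1 and Lrrn4 did not pass the filter on low counts. Leukocyte markers, led by Lyz2, summed to 7790 and 3790 against 3610 and 920 TPM, and epithelial markers to 1030 and 1130 against 464 and 2320 TPM, where Scgb1a1 gave 2098 TPM in ZsGreen+ replicate 2. The epithelial sums overlapped between the groups. Of 7 epithelial markers, however, 4 lay higher in both tdTomato+ libraries and 1 lower, beside 19.9% and 18.2% of all genes. Their median log2 fold change was 1.07. The leukocyte sums did not overlap, but Lyz2, their largest part, overlapped in CPM. Of 7 leukocyte markers 3 lay higher in both tdTomato+ libraries and 0 lower, beside 19.9% and 18.2% of all genes. The part of these cell types was not tested.

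Markers of endothelial subtypes differed beside the 8 genes. The median log2 fold change of venous markers was 1.45 over 8 genes, 3 called higher (Vcam1, Cpe and Car8) beside 0.304% of all genes in either direction, with sums of 1480 and 1500 against 546 and 530 TPM. For lymphatic markers it was -2.03 over 7 with 3 called lower (Mmrn1, Reln and Fxyd6), while their sums overlapped at 414 and 594 against 391 and 613 TPM, most of it Lyve1 (0.42, SE 0.31). The median of aerocyte (aCap) markers, of the capillary cells for gas exchange, was -1.11 over 7 with 1 called lower (Prx). It was -0.41 over 8 general capillary (gCap) markers and -0.15 over 9 arterial markers, with 0 called in either. Of the aCap markers 6 lay lower in both tdTomato+ libraries and 0 higher, and of the gCap markers 4 and 1, beside 18.2% and 19.9% of all genes. The gCap markers with the smallest p were Gpihbp1 (636 and 771 against 1492 and 1820 TPM), Sema3c (-1.72, SE 0.39) and Glp1r (-1.56, SE 0.37). Of the arterial markers Gja5, a connexin, stood at 52.2 and 83.9 against 17.3 and 12.9 TPM (log2 fold change 2.01, SE 0.33), Fbln5 at 407 and 710 against 139 and 185 TPM and the kinase Bmx at 10.8 and 15.6 against 2.51 and 5.16 TPM. These have the smallest p of the list. In CPM Sox17 (-0.47, SE 0.24) and Hey1 (-0.60, SE 0.23) lay lower without overlap, and the other 4 overlapped. In TPM Sox17 overlapped (77.8 and 96.9 against 85.7 and 139), while Efnb2 did not (57.7 and 72.0 against 47.0 and 57.5). Whether the differences of Mgp, Bmp4, Bmp6 and Fstl1 follow a different mix of endothelial subtypes was not tested.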

How the data were processed

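Lung endothelial cells of mice were sorted and sequenced in bulk. Per the labels' protocols, an RNeasy Micro kit gave total RNA, which the Discover-sc WTA Kit V2 amplified before a TruePrep library kit; the protocols mention no molecular identifiers, so 1 molecule can give several counts. The authors deposited estimated counts and TPM per gene and library, per the file headers; 16.2% to 17.9% of the estimated counts are not whole, and they were rounded here, while those of the 8 genes are whole. RSEM 1.3.1, DESeq2 1.4.5, mm10 and GRCm38 are named in the submitters' processing notes, without their role. No source used here gives the aligner or the strandedness, and 8 further per-library columns (FPKM and normalized counts) were not used.

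Titles gave each library its group and replicate number. edgeR 4.0.16 (R 4.3.3) ran its two-sided quasi-likelihood test with TMM and filterByExpr (minimum count 10) on all 4 libraries, leaving 13177 genes. The 95% intervals use the test's degrees of freedom. Overlap between groups was read on TMM-scaled CPM. Alternatives were RLE factors, DESeq2 1.42.0, other count filters, leaving out each library, a replicate block and limma 3.58.1 with trend on log2 of TPM plus 1 or 0.1. The fit was tested on simulated data.

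The members and the 20 lists were chosen with earlier results of these data known. Named are the 8 genes, Acta2, in each list up to 3 genes of lowest p whose mean reached 1 TPM, the 5 genes nearest to Mgp and the flanking genes; others are named as examples. Of 186 list genes 179 are in the table. Spans come from the table where RefSeq gives the same.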

Additional observations from a re-analysis of the deposited data

How the results depend on the processing

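The number of genes called over all genes depended on the setting. It was 40 with edgeR, 128 without a filter on low counts, 327 with DESeq2, 22 with limma on log2(TPM + 0.1) and 0 with limma on log2(TPM + 1) without a filter on low values, and leaving out each library in turn gave 4 to 304. On the TPM scale 71.0% (plus 1) and 72.7% (plus 0.1) of calls were higher in tdTomato+ libraries, against 55.0% in the edgeR fit. Of the 7 genes beside Mgp, edgeR called 0, 1 without a filter on low counts (Fstl1, log2 fold change 1.3), 2 with DESeq2 (Bmp4, 1.11, and Fstl1, 1.28) and 0 to 1 when each library was left out. With each library left out the log2 fold change ran from 0.88 to 1.42 for Bmp4, from -0.71 to 0.12 for Bmp2, from -0.48 to 0.27 for Bmper and from -0.08 to 0.50 for Bambi, and the cause of these changes of sign was not tested. Bmper was at 0.01 with limma on log2(TPM + 1) without a filter. It gave no value under the stricter count filter or the TPM filter. Mgp ran from 2.05 to 2.41, Fstl1 from 1.00 to 1.56, Bmp6 from -0.82 to -0.40 and Tmem100 from -1.29 to -0.32 over all alternatives, without a change of sign. With CPM in place of TPM the same number of the 8 genes, 4, did not overlap.

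Same-numbered libraries of the groups deviated together (r = 0.455 across 13177 genes, which are not independent), but the labels do not say that a number marks a shared mouse or day, and 2 pairs cannot show it. With the replicate number as a block 934 genes were called, and of the 7 genes Bmp4 (1.15), Fstl1 (1.27) and Tmem100 (-0.80, edgeR adjusted p = 0.00389, against 0.628 without the block) were, 3 in all; Bmp6 had an adjusted p of 0.0655. Depth limits Bmper and Bmp2, read from under 100 counts in each library.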
